A study of Mus musculus with 16 samples.

Results

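The microRNAs described here are the myosin-encoded ones of the heart: mmu-miR-208a-3p, mmu-miR-208a-5p, mmu-miR-208b and mmu-miR-499. They were chosen by name, as the probes whose name on the array holds one of these 4 names exactly. Each name matched 1 probe, which gives 4 of the 1023 mouse microRNA probes on the array. The arrays measured total RNA of individual hearts of inbred C57BL/6 mice used as a model of post-traumatic stress disorder. For 6 hours a day, stressed mice sat in a wire mesh box placed in an aggressor's cage, for 1 day (T1R1), 2 days (T2R1) or 3 days (T3R1), and then rested for 1 day. Control mice sat in such boxes too, in a large cage with no aggressor. The control titles read C2R1, a code that the labels do not spell out, and the protocol text names longer exposures than the design text and the group codes, which are followed here. No age or sex is given in the labels used here. Each of the 4 groups held 4 samples on 2 arrays, so 16 samples lay on 8 arrays. Each array carried 2 samples of the same group, with Hy3 as the dye of the odd-numbered and Hy5 as the dye of the even-numbered one.

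Each of these microRNAs lies within a myosin heavy chain gene. Mir208a lies in Myh6, which encodes the fast alpha-myosin of the adult mouse heart, Mir208b in Myh7, which encodes the slow beta-myosin of the fetal and the stressed heart, and Mir499 in Myh7b. In mouse studies miR-208a was needed for the rise of beta-myosin under cardiac stress, and miR-208b and miR-499 act on the same slow-myosin programme, so the 3 precursors are read as markers of heart muscle and of its myosin state. A precursor gives 2 strands, of which one usually accumulates. For miR-208a and miR-208b that is the 3p strand, and for miR-499 the 5p strand.

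All 4 members were matched by name to mature sequences of RefSeq (build GRCm38.p6), with mmu-miR-208b of the array taken as the 3p strand and mmu-miR-499 as the 5p strand. The sequences are shown because the seed, in capitals (bases 2 to 8 from the 5′ end), is what groups the family.
mmu-miR-208a-3p: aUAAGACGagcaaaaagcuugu
mmu-miR-208b: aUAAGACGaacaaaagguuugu
mmu-miR-499: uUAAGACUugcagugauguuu
mmu-miR-208a-5p: gAGCUUUUggcccggguuauac
mmu-miR-499*: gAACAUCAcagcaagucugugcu
The first 2 share the seed UAAGACG, which no other of the 1679 mature mouse sequences in the RefSeq table holds. miR-499 shares bases 2 to 7 (UAAGAC) with them and differs at base 8. Those 3 were the only mature sequences with that stretch. Over their whole length miR-208a-3p and miR-208b are identical at 19 of 22 bases, with the substitutions G10A, A16G and C18U from miR-208a-3p to miR-208b, counted from the 5′ end. A probe for one of these 2 could therefore also bind the other, and cross-binding was not tested. miR-499* is the other strand of the miR-499 precursor and no member.

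The precursors are shown to place both strands, in capitals, within each hairpin.
Mir208a: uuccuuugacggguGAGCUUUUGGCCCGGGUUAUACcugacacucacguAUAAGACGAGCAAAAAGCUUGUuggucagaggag
Mir208b: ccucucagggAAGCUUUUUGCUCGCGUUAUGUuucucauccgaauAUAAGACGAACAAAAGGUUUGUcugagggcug
Mir499: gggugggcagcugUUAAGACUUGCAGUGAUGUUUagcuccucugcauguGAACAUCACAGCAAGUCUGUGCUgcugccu
In GRCm38.p6 Mir208a spans chr14:54949060-54949142 and Mir208b chr14:54975700-54975776, both on the minus strand, with 26557 bases between them. Mir499 spans chr2:155622880-155622958 on the plus strand. Each mature sequence lay inside the annotated span of its host myosin gene and on the host's strand. Exon or intron was not determined here.

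Every probe was spotted 4 times on an array, and a level is the mean of the usable spots on the log2 scale after normalization. Background in a sample was the 95th percentile of 143 probes for human viruses, which lay between 6.62 and 6.95 on the log2 scale. miR-208a-3p exceeded it in all 15 samples that have a value, miR-499 in 16 of 16, miR-208b in 7 of 16 and miR-208a-5p in 2 of 16. The cardiac and skeletal muscle markers miR-133a and miR-133b were above background in 16 of 16 samples, and the skeletal muscle marker miR-206 in 13. The endothelial markers miR-126-3p and miR-126-5p and the erythroid marker miR-144 were above it in 16 as well. The neuronal markers miR-124 and miR-9 and the liver marker miR-122 were above it in 0. Of the 4 epithelial markers (miR-200a, miR-200b, miR-200c and miR-205), 3 were above it in 0 samples, and the remaining one in some but not all. Of 5 leukocyte markers 2 were above it in all 16 samples and 1 in 0. The smooth muscle marker miR-145 was above it in 16, and miR-143 in the 9 samples with a value. Control and T3R1 lie in one run of slide numbers, and T1R1 and T2R1 in another. The comparisons of T3R1 with control and of T2R1 with T1R1 therefore stay within a run, and in the other 4 comparisons run and group cannot be told apart. The number of arrays, 2 in each group, limits the precision. The errors below use 1 array correlation for all mouse probes, 0.246. Over the mouse probes above background in at least 4 samples it was 0.627, so the errors given for such probes may be too small.

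None of the 4 members passed the test in any of the 6 comparisons (limma, adjusted over all mouse probes). Passing that test was itself rare: the share of mouse probes called was 1.18% for T1R1 against control, 1.17% for T2R1 against control, 0% for T3R1 against control, 0% for T2R1 against T1R1, 2.54% for T3R1 against T1R1 and 0.978% for T3R1 against T2R1. At an unadjusted p under 0.05 the count was 70 of 1022 probes for T3R1 against control, or 6.85%, and 37 of 1022 for T2R1 against T1R1, or 3.62%. The members with the lowest p values were miR-208a-3p and miR-499 in T3R1 against control, at rank 7 and rank 8 of 1022. Both stood lower in T3R1. The only call in the family was that of miR-499* in T3R1 against T1R1, across the slide runs.

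miR-208a-3p, the accumulating strand of the alpha-myosin microRNA, was bright, with mean raw intensities between 1738 and 8694 per sample. Its 4th place among the mouse probes by brightness describes spots, not amounts of RNA. The scanner software marked 35 of its 64 spot readings (16 samples with 4 spots each) as non-uniform, which is 54.7%, against 1.25% of all mouse-probe spots. It marked 0 as population outliers and 0 as saturated. Marked spots were left out of the level. Of the 16 control readings 4 were usable, against 6 in T1R1, 7 in T2R1 and 12 in T3R1. Control sample 2 had 0 usable spots and so no level, control samples 3 and 4 rested on 1 spot each, and control sample 1 rested on 2. The control level thus has the fewest spots behind it of the 4 groups.

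**Figure D1:**
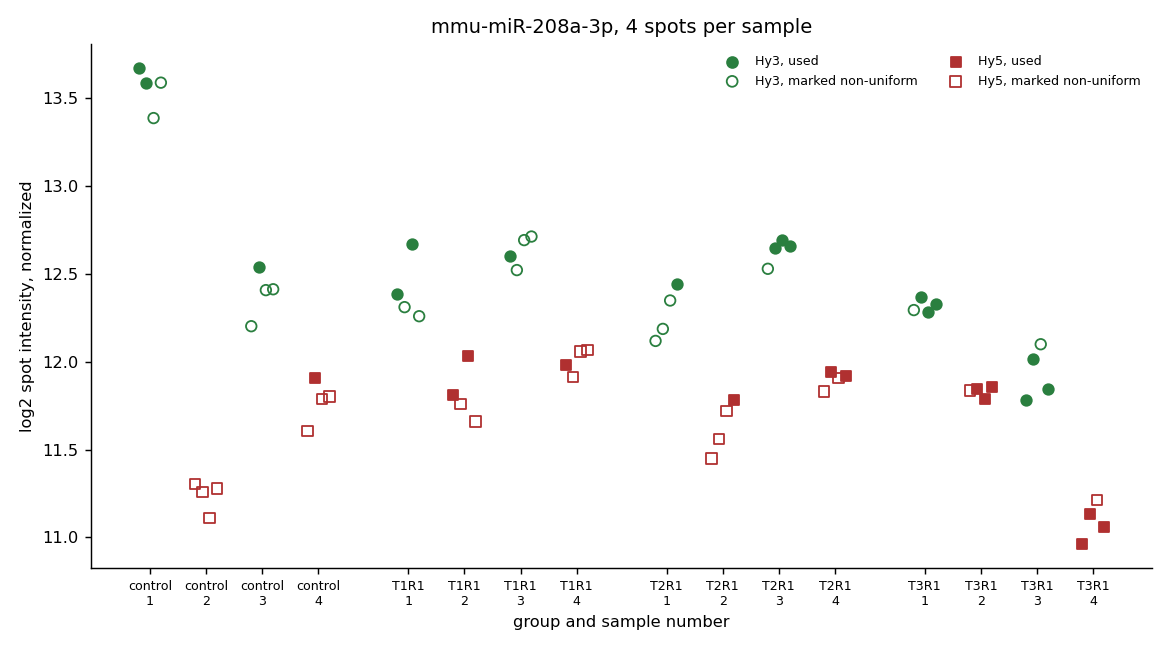
Each of the 4 spots of miR-208a-3p in each of the 16 samples, as normalized log2 intensity. Circles are Hy3 and squares Hy5, filled symbols were used and open symbols were marked non-uniform. All 4 spots of control sample 2 are open, and those of control sample 1 stand above the spots of every other sample.

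In control the levels of miR-208a-3p were 13.63 in sample 1, 12.54 in sample 3 and 11.91 in sample 4 on the log2 scale. In T1R1 they were 12.53, 11.92, 12.60 and 11.98 in samples 1 to 4. T2R1 held 12.44, 11.78, 12.67 and 11.93. T3R1 held 12.33, 11.83, 11.88 and 11.05. Control sample 1 was the highest of the 15 values and T3R1 sample 4 the lowest, and the groups overlapped. The group levels ran from control (12.69 ± 0.87, SD, n = 3) through T1R1 (12.26 ± 0.36, n = 4) and T2R1 (12.21 ± 0.42, n = 4) to T3R1 (11.77 ± 0.53, n = 4). No neighbours in that order differed by more than their spread.

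After normalization the Hy3 sample was higher than the Hy5 sample on 7 of the 7 arrays with both values, by 0.50 to 0.83. The dye term of the model was 0.72 ± 0.13 (SE). In raw intensity the Hy3 sample was the lower one on every array, with a ratio of Hy3 to Hy5 between 0.518 and 0.920. In the deposited values Hy3 was higher by 0.10 to 0.62. With the dye in the model, miR-208a-3p in T3R1 stood at -0.85 ± 0.24 (SE, 95% confidence interval -1.38 to -0.33) from control on the log2 scale, a ratio of 0.554, with a limma p of 0.00385 and an adjusted p of 0.488. T1R1 stood at -0.37 ± 0.24 and T2R1 at -0.42 ± 0.24 from control. T3R1 stood at -0.49 ± 0.23 from T1R1 and at -0.43 ± 0.23 from T2R1. The difference between T2R1 and T1R1, -0.05 ± 0.23, was smaller than its error, with an interval of -0.55 to 0.44.

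The size of the difference of T3R1 from control rests on control sample 1. Without it, miR-208a-3p in T3R1 stood at -0.45 from control, T1R1 at 0.03 and T2R1 at -0.02. With the marked spots kept, so that all 16 samples have a level, T3R1 stood at -0.45 from control. With the marked spots kept and control sample 1 left out, but its low array partner, control sample 2, kept in, it stood at -0.28. Leaving out the array of control samples 3 and 4, so that sample 1 was the only control value, moved it to -1.53. limma gave that an adjusted p of 0.0138, which takes the spread from the other groups and assumes that the lone control value varies like them. Leaving out the array of T3R1 samples 3 and 4 moved it to -0.56. Median scaling between arrays put it at -0.18 and the deposited values at -0.27. The array of control samples 1 and 2 stood apart at the bright end. Over the 20 brightest mouse probes, all spots kept, the median difference of Hy3 from Hy5 was 0.91 on this array and between 0.09 and 0.24 on the other 7. For miR-208a-3p itself it was 2.32 on this array and between 0.49 and 0.84 on the others. With its marked spots kept, control sample 1 stood at 13.56, the highest of the 16 values, and control sample 2 at 11.24, second lowest after T3R1 sample 4 at 11.09. These are values after normalization. In raw intensity the ratio of Hy3 to Hy5 for miR-208a-3p was 0.569 on this array and between 0.518 and 0.920 on the others. In the deposited values the difference of Hy3 from Hy5 was 0.62 on this array and between 0.10 and 0.40 on the others. What set this array apart after normalization was not tested. Leaving out the marked spots removed its low normalized Hy5 value and kept its high normalized Hy3 value. How the marked spots enter the dye curve matters as well: over 9 choices of the spots given weight 0 in the loess step, all run after values had been seen, the difference of T3R1 from control lay between -0.92 and -0.60 with the marked spots at weight 0, and between -0.69 and -0.57 with them at full weight.

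A second probe, of the rat name rno-miR-208, was also bright and had 14 of its 64 readings marked. The array files give no probe sequences, so whether it binds the same RNA was not tested. Across 15 samples it correlated with the miR-208a-3p probe at r = 0.94, a description, since both share array, dye and sample. In T3R1 it stood at -0.27 ± 0.25 from control (interval -0.80 to 0.26, limma adjusted p = 0.899), with usable spots in all 16 samples. Control sample 1 was its highest value too, at 12.82, and control sample 2 its lowest, at 10.78. Both samples of that array enter its control mean, whereas only sample 1 enters that of miR-208a-3p. The difference between the 2 probes in T3R1 was not tested.

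miR-499, the strand from Myh7b, was measured cleanly, with 63 of 64 readings usable. In control its levels were 8.41, 8.48, 8.26 and 8.41 in samples 1 to 4 on the log2 scale. T1R1 held 8.30, 8.42, 8.40 and 8.43, and T2R1 held 8.15, 8.49, 8.22 and 8.25. T3R1 held 8.34, 8.11, 7.78 and 7.82, so samples 2, 3 and 4 lay below all 12 samples of the other groups and sample 1 lay within the control range. The group levels were 8.39 ± 0.09 in control, 8.39 ± 0.06 in T1R1, 8.28 ± 0.15 in T2R1 and 8.01 ± 0.26 in T3R1 (SD, n = 4 each). The first 3 did not differ beyond their spread.

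In T3R1 miR-499 stood at -0.38 ± 0.11 from control (SE, interval -0.62 to -0.13), a ratio of 0.770, lower than the control mean in 4 of 4 samples, with a limma p of 0.00493 and an adjusted p of 0.488. It stood at -0.37 ± 0.11 from T1R1 (adjusted p = 0.127) and at -0.27 ± 0.11 from T2R1 (adjusted p = 0.439). T1R1 stood at -0.003 ± 0.11 and T2R1 at -0.11 ± 0.11 from control. The lowest values of T3R1, those of samples 3 and 4, share an array, whose mean for miR-499 was 0.42 lower than that of samples 1 and 2, and for miR-208a-3p 0.61 lower, while the median over the 132 mouse probes above background in all samples was 0.07 lower. Without the array of samples 3 and 4, miR-499 in T3R1 stood at -0.17 from control. Without the array of samples 1 and 2 it stood at -0.59 and was called (limma adjusted p = 0.00858), as it was without sample 1 alone, at -0.49 (adjusted p = 0.0409). The first of these fits rests T3R1 on samples 3 and 4 of 1 array, the lower one. Its p therefore holds no spread between T3R1 arrays. Median scaling between arrays, which moved the median of those 132 probes in T3R1 to 0.31 above control, put miR-499 at 0.05.

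**Figure D2:**
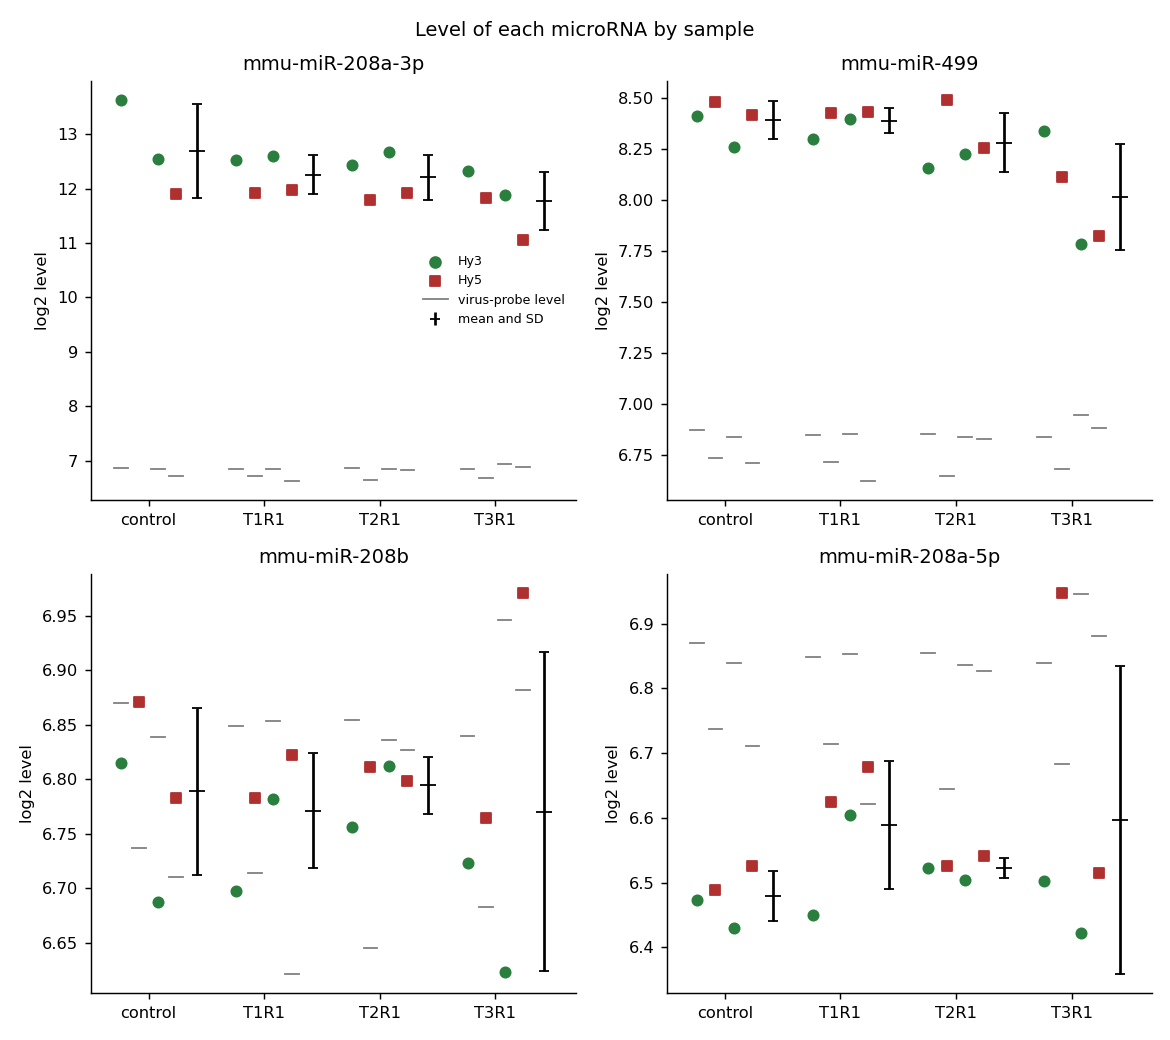
Log2 level of the 4 members in each sample (green circles Hy3, red squares Hy5), with the group mean and SD in black and each sample's virus-probe level as a grey dash. miR-208a-3p and miR-499 stand well above the dashes, miR-208b around them and miR-208a-5p mostly below.

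The other strand of this precursor, miR-499*, was dimmer, at 6.77 to 7.40 on the log2 scale, and above background in 15 of 16 samples. Its levels were 7.0, 7.04, 6.99 and 7.26 in control, and 6.97, 7.40, 7.27 and 7.40 in T1R1. They were 7.11, 7.35, 7.21 and 7.27 in T2R1, and 6.96, 6.98, 6.77 and 6.97 in T3R1. All 4 T3R1 samples lay below all 4 control samples, as did 1.86% of mouse probes, and below all 4 T2R1 samples, as did 3.81%. miR-499* fell in T3R1 against T1R1, by 0.34 ± 0.08 on the log2 scale (SE, limma adjusted p = 0.0381), where 2.54% of probes were called. This call was lost in 21 of 45 alternative settings, among them the quantile normalization, the deposited values and the filter on dim probes. Against T2R1 it stood at -0.31 ± 0.08 (adjusted p = 0.0851) and against control, within a slide run, at -0.15 ± 0.08 (adjusted p = 0.793). Both strands of Mir499 thus had their lowest group mean in T3R1, and across the 16 samples they correlated at r = 0.64.

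miR-208b, the beta-myosin microRNA, stayed near background. Its levels lay between 6.62 and 6.97 on the log2 scale, with group means of 6.79 ± 0.08 in control, 6.77 ± 0.05 in T1R1, 6.79 ± 0.03 in T2R1 and 6.77 ± 0.15 in T3R1 (SD, n = 4 each). It exceeded the virus probes in 2 control, 2 T1R1, 1 T2R1 and 2 T3R1 samples. All 7 were Hy5 samples, whose virus-probe level was the lower one on each array. The 6 differences between groups lay between -0.02 and 0.02, each with an SE of 0.06. For T3R1 against control the interval was -0.15 to 0.11. Near background a difference on this scale understates a change in the RNA, so these intervals bound the measured signal only. Its other strand, miR-208b*, was above background in 0 of 16 samples. The rat-named probes rno-miR-208b-3p and rno-miR-208b-5p were above it in 3 and 0 of 16.

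miR-208a-5p, the strand of miR-208a that does not usually accumulate, was at background. Its levels lay between 6.42 and 6.68 on the log2 scale in 15 samples and at 6.95 in T3R1 sample 2. That value came from 1 spot with a raw intensity of 508, where the other 3 spots of the sample read between 77.8 and 86.9. The scanner software did not mark it. T1R1 sample 4, at 6.68, was the other sample above the virus probes. No fold change is given for this strand. The precursor's strands thus differed in detection: the 3p probe was above background in 15 of 15 samples with a value and the 5p probe in 2 of 16.

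**Figure D3:**
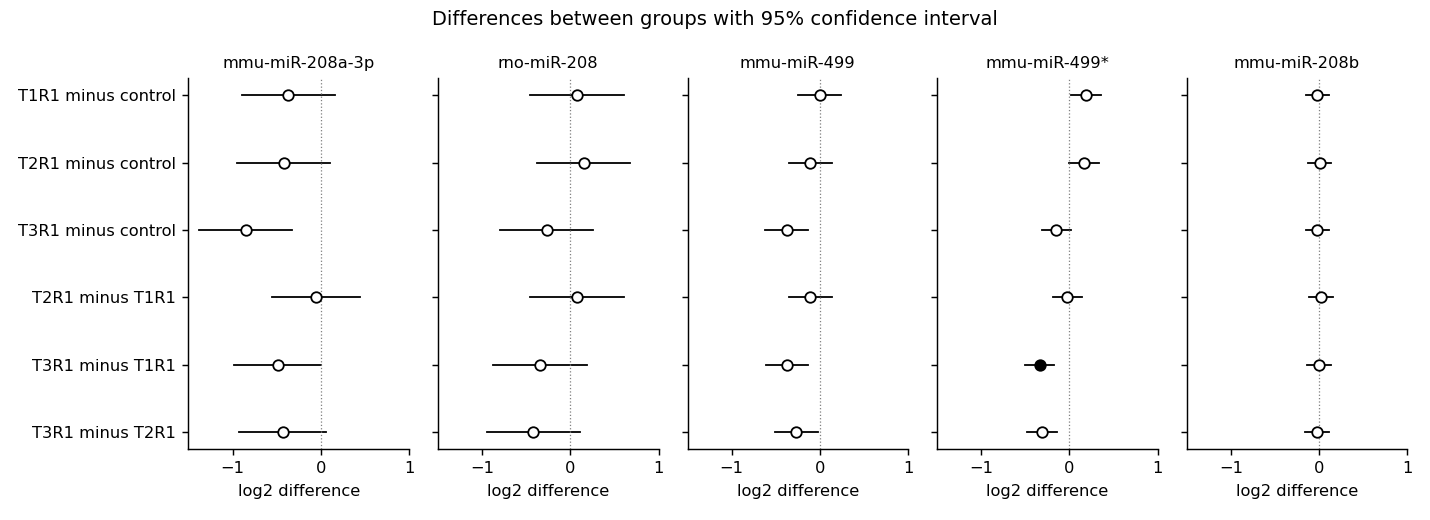
Difference between groups on the log2 scale (points) with its 95% confidence interval (lines) for miR-208a-3p, the rat-named miR-208 probe, miR-499, miR-499* and miR-208b, in the 6 comparisons. Filled points passed the test, which is the case for miR-499* in T3R1 against T1R1 alone.

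The other microRNAs of muscle were read from a list of 16 names, of which 8 had a probe that was tested: miR-133a, miR-133b, their star strands, the star strands of miR-1a, miR-206 and miR-486. One of the 8, miR-133b*, was above background in 0 of 16 samples, so its sign carries no meaning in the counts below. In T3R1 against control 7 of the 8 were negative and 0 were called (under median scaling between arrays 7 were positive), with a median of -0.09 against -0.001 over all mouse probes. miR-133a stood at -0.20 ± 0.18 and miR-133b at -0.30 ± 0.24. In T1R1 against control 8 of 8 were positive (5 of 8 without a step between arrays) and 1 was called, miR-133a*, which rose by 0.43 ± 0.07 (limma adjusted p = 0.00742). In T2R1 against control it stood higher by 0.42 ± 0.07 (limma adjusted p = 0.00635), and 7 of 8 were positive (4 of 8 without a step between arrays). Without that step 1 of the 8 was called lower in T1R1 and 1 in T2R1. Both comparisons lie across the slide runs, where run and group cannot be told apart. With quantile normalization of the channels 0 of the 8 were called higher in T1R1, as without a step between arrays, and with median scaling 7. In T3R1 against T1R1, which lies across the slide runs, 8 of 8 were negative under each of the 4 scalings. Their median was -0.27, against -0.10 over the 132 mouse probes above background in all samples. Without a step between arrays these medians were -0.54 and -0.35. The number called was 2 with the reported scaling, 0 without a step between arrays, 6 with median scaling and 1 with quantile normalization. The 2 were miR-133a* at -0.42 ± 0.07 and miR-1a-1* at -0.25 ± 0.06 (limma adjusted p = 0.00394 and 0.0437). Against T2R1, also across the slide runs, 8 of 8 were negative, with a median of -0.17 against -0.06 over those 132 probes. With the reported scaling miR-133a* was called, at -0.41 ± 0.07 (limma adjusted p = 0.0108), and without a step between arrays 0 were. These comparisons share the T1R1, T3R1 or control samples. miR-208a-3p and miR-499 stood on the side of most of this list in T3R1 against control, while in T1R1 against control miR-208a-3p, miR-499 and miR-208b stood at -0.37, -0.003 and -0.02, and turned positive under median scaling between arrays.

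Markers of other cells also stood lower in T3R1 against control with the reported scaling, though under median scaling 2 of 3 erythroid, 2 of 2 endothelial and 3 of 5 leukocyte markers were positive. All 3 erythroid markers (miR-144, miR-451 and miR-486) were negative against control, with a median of -0.33, and 0 were called. Their summed linear level ran from 2545 to 8158 over the control samples and from 2648 to 3947 over the T3R1 samples. These sums and those below keep the marked spots, since miR-451 had a usable spot in 12 of 16 samples. The endothelial markers miR-126-3p and miR-126-5p were both negative, with a summed level of 2476 to 4831 in control and 1944 to 3148 in T3R1. All 5 leukocyte markers were negative, among them miR-223 at -0.02 ± 0.15 (SE) and miR-155, which was above background in 0 of 16 samples. The summed level of the 5 was 665 to 806 in control and 620 to 690 in T3R1. The part of these cell markers in the values of miR-208a-3p and miR-499 was not tested. In whole-heart RNA, fewer cells of a type and less RNA per cell cannot be told apart.

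Among the mouse probes above background in all samples, those whose pattern was most like that of miR-208a-3p over 15 samples were miR-30c (r = 0.90), miR-126-3p (r = 0.89) and miR-378 (r = 0.86). For miR-499 over 16 samples they were miR-130a (r = 0.83), miR-101a (r = 0.82) and miR-126-5p (r = 0.81). For miR-208b the highest values were 0.62 (miR-325), 0.62 (miR-872*) and 0.59 (miR-667), and within a dye they fell to 0.28, 0.27 and 0.20. These likenesses are descriptions, and the samples compared share arrays and dyes. miR-208a-3p and miR-499 correlated with each other at r = 0.43 over 15 samples.

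**Figure D4:**
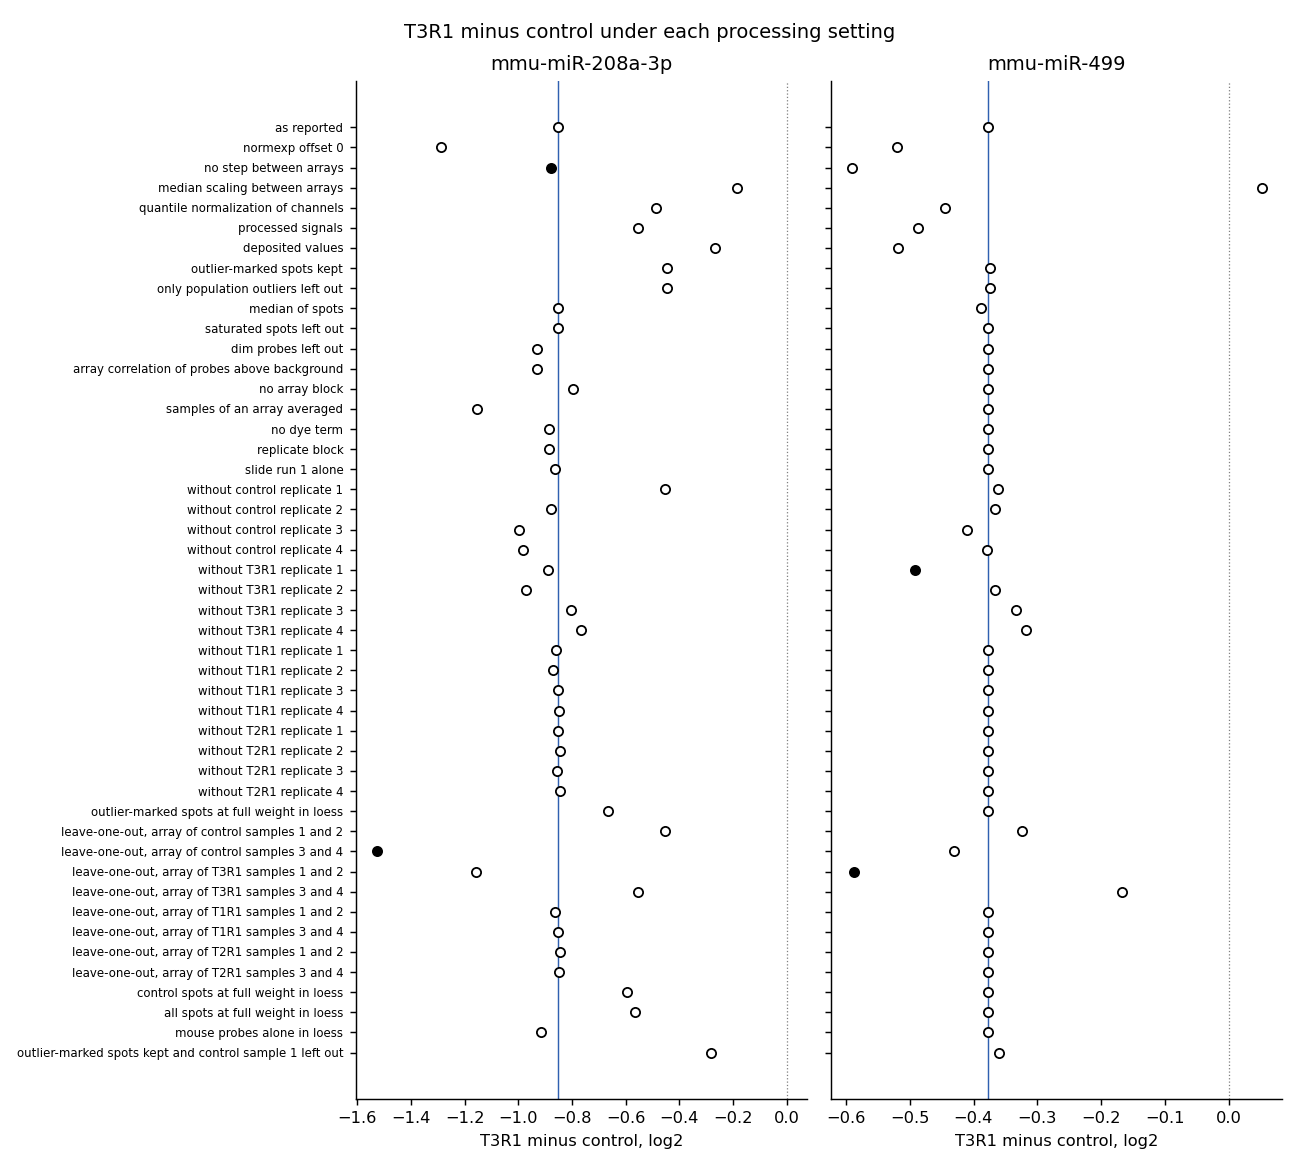
Difference of T3R1 from control on the log2 scale for miR-208a-3p (left) and miR-499 (right) under each processing setting, one line per setting, with the reported value as a blue line and filled points where the adjusted p was under 0.05. For miR-208a-3p the values run from -1.53 to -0.18, and for miR-499 from -0.59 to 0.05.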

How the data were processed

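Total RNA of 16 mouse hearts was hybridised to 8 arrays of 11204 features each. Per the file headers, the authors made the deposited intensity of each spot and channel with Agilent Feature Extraction 9.5.3.1, as a mean spot intensity and a median local background with no subtraction. The deposited files also give, for each spot, whether it was marked as non-uniform, as a population outlier, as saturated or as well above background. The deposited value table is on the log2 scale; the steps behind it are not given in the sources used here, and its centring is unknown. Median raw mouse-probe intensity lay between 41.2 and 73.7 per sample.

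With R 4.3.3 and limma 3.58.1, background was corrected by normexp (offset 50). Loess within arrays gave control spots and spots marked as outliers weight 0, and Aquantile was applied between arrays. Giving marked spots weight 0 in the loess step was settled after values under several weightings had been seen, to match the earlier processing of these data; the other weightings are given in the text. Marked spots were left out of the mean. A model held group means, a dye term and the array as a random block. It was fitted to all 16 samples with lmFit and eBayes over the mouse probes. The array correlation was 0.246 over all mouse probes and 0.627 over those above background in at least 4 samples. The fit used 0.246, and with 0.627 the call of miR-499* in T3R1 against T1R1 was lost (limma adjusted p = 0.378). The limma p values were adjusted by Benjamini-Hochberg in each of 6 comparisons, with 0.05 as threshold. The procedure was tested on simulated data with normal noise, no missing values and an array correlation near that of the fit. It was not tested at 0.627 or with a missing control value. Replicates are individual hearts per the labels' protocols.

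The members and lists were chosen with earlier results of these data known. Named are the 4 members, the other miR-208 and miR-499 probes, the fixed lists, and for each member above background in at least 4 samples the 3 most alike of the mouse probes above background in all samples. Alternatives covered background correction, scaling, starting signal, marked, saturated and dim spots, the dye term, the array block, the replicate block, single slide runs and left-out samples or arrays. Sequences came from RefSeq tables, read with Python 3 and pandas.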

Additional observations from a re-analysis of the deposited data

Results flagged for a closer look

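miR-499*, the other strand of the miR-499 precursor, holds all 3 results that stand out by a fixed rule. T3R1 sample 3, at 6.77 on the log2 scale, lay far below the other 3 samples of its group, of which the nearest was at 6.96, so that the gap took 0.92 of the group's whole range. Chance flags about 1 in 20 groups, and 35 groups were looked at. In T2R1 all 4 samples lay above the control mean and in T3R1 all 4 lay below it, a difference of -0.31 between the groups, with a limma adjusted p of 0.0851 for T3R1 against T2R1. The difference of T3R1 from T1R1, -0.34, passed the test (limma adjusted p = 0.0381) but also lay across the slide runs, and the call was lost in 21 of 45 alternative settings.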

How the results depend on the processing

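The 6 comparisons of miR-208a-3p, miR-208b, miR-499 and miR-499* were recomputed under up to 46 settings. The limits are these: 2 arrays a group, 1 missing control value and few usable spots for miR-208a-3p, and a signal near background for miR-208b, whose sign carries no meaning here. The loess weightings, the left-out arrays and the setting that kept marked spots but left out control sample 1 were chosen after seeing the data. The cause of the changes below was not tested.

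Without a step between arrays the median mouse probe of T1R1, T2R1 and T3R1 lay at -0.59, -0.62 and -0.62 from control. Under median scaling the 132 probes above background in all samples lay at 0.63, 0.59 and 0.31. Median scaling turned T1R1 against control to 0.73 for miR-208a-3p, 0.20 for miR-208b and 0.77 for miR-499, with miR-208a-3p and miR-499 called, and called miR-499* at 0.55. It turned T2R1 to 0.52 for miR-208a-3p and 0.63 for miR-499, with calls for miR-499, miR-208b (0.23) and miR-499* (0.52), and T3R1 to 0.12 for miR-208b, 0.0522 for miR-499 and 0.0592 for miR-499*. It also called miR-208a-3p (-0.91) and miR-499 (-0.72) in T3R1 against T1R1, where it called 87 mouse probes. In T3R1 against T2R1 it called miR-499 (-0.58) and miR-499* (-0.46), among 39 mouse probes. With no step between arrays miR-208a-3p (0.0404), miR-499 (0.14) and miR-499* (-0.0792) reversed in T1R1, miR-208b (-0.42) and miR-499* (-0.14) in T2R1, and miR-208a-3p was called in T3R1 (-0.88). In T3R1 against control 702 of the 1022 mouse probes tested were called under that setting, so the call is not particular to miR-208a-3p. Quantile normalization gave 0.0287 for miR-499 in T1R1 and -0.00496 for miR-208b in T2R1. The deposited values gave 0.0439 and 0.0382 for miR-208b in T1R1 and T3R1, 0.0429 for miR-208a-3p in T3R1 against T2R1 and 0.00467 for miR-499* in T2R1 against T1R1. The processed signals gave 0.0588 for miR-208b in T1R1. The median of spots gave 0.0176 for miR-208b in T3R1 against control and 0.0283 against T1R1. With marked spots kept, or only population outliers left out, miR-499 in T1R1 stood at 8.73e-05. With marked spots kept and control sample 1 left out, T1R1 stood at 0.14 for miR-208a-3p, 0.00295 for miR-208b and 0.0136 for miR-499, T2R1 at 0.0326 for miR-208a-3p and T3R1 at 0.00195 for miR-208b.

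Leaving out 1 sample or 1 array at a time gave these ranges, with the 3 comparisons with control first, then T2R1 against T1R1, T3R1 against T1R1 and T3R1 against T2R1. For miR-208a-3p they were -1.04 to 0.0343, -1.09 to -0.019, -1.53 to -0.45, -0.15 to 0.0389, -0.79 to -0.18 and -0.74 to -0.13. For miR-208b they were -0.0715 to 0.0361, -0.0483 to 0.0592, -0.0812 to 0.0351, -0.0077 to 0.0541, -0.0634 to 0.0488 and -0.0866 to 0.0256. For miR-499 they were -0.0571 to 0.0503, -0.18 to -0.0568, -0.59 to -0.17, -0.17 to -0.0611, -0.58 to -0.16 and -0.48 to -0.0571. For miR-499* they were 0.11 to 0.26, 0.11 to 0.22, -0.20 to -0.10, -0.10 to 0.0491, -0.41 to -0.26 and -0.36 to -0.26. miR-208a-3p in T3R1 was called against control without the array of control samples 3 and 4 (-1.53), a fit with 1 control value that is assumed to vary like the other groups. miR-499 in T3R1 was called against control, T1R1 and T2R1 without T3R1 sample 1 or without the array of T3R1 samples 1 and 2. The latter fit leaves T3R1 on 1 array. miR-499* was called in T3R1 against T2R1 in 6 of 24 such fits, and its calls against T1R1 are given below.

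The call of miR-499* in T3R1 against T1R1 was lost at -0.34 with dim probes left out, with the array correlation of probes above background, with the samples of an array averaged and without the dye term. It was also lost with offset 0 (-0.54), no step between arrays (-0.50), quantile normalization (-0.37), processed signals (-0.55) and the deposited values (-0.60), and was kept in 12 of the 24 fits that left out 1 sample or array. Without the array block miR-499* was also called in T3R1 against T2R1 (-0.31). The number of called probes, reported as 12, 12, 0, 0, 26 and 10 in the order T1R1, T2R1 and T3R1 against control, T2R1 against T1R1, T3R1 against T1R1 and T3R1 against T2R1, ranged from 0 to 607, 2 to 661, 0 to 702, 0 to 1, 0 to 87 and 1 to 39. Same-numbered samples of different groups correlated at -0.07 to 0.66 (median 0.20) in their deviations from the group means over 132 probes. Samples of the same dye and another number had a median of 0.24. In 10 of 16 samples the best correlation was with one of their own number. The labels do not say that the numbers pair hearts, and the numbers also carry the dye, so they were not taken as pairs. With the replicate block miR-208a-3p stood at -0.89, miR-499 at -0.38 and miR-208b at -0.02 in T3R1 against control, no member was called in any comparison, and the block changed no call of these 4 microRNAs.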
